A study of Mus musculus with 12 samples.

Results

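The genes described here carry the LIF signal in mouse embryonic stem (ES) cells: the receptor chains Lifr and Il6st, the kinase Jak1, the transcription factor Stat3, the feedback inhibitor Socs3 and the kinases Pim1, Pim2 and Pim3. They were chosen by name, with earlier results of these data known, so the shares of them called describe and do not test. Every array probe set assigned by the platform annotation to one of these 8 genes alone was taken. This gave 23 probe sets out of 45037 tested and 8 of 18193 genes. Lifr has 3 probe sets, Il6st 4, Jak1 3, Stat3 4, Socs3 3, Pim1 2, Pim2 1 and Pim3 3. No probe set assigned to several genes included one of them.

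The cells were KH2 cells, a mouse ES cell line, grown on feeder cells. Of the 12 arrays, 3 came from cells without retinoic acid (RA) and 3 each from cells kept for 2 h, 4 h or 6 h in 0.3 µM RA, with replicates lettered A to C in every group. RA, a vitamin A derivative, binds nuclear receptors and starts differentiation of ES cells. The treated cells received RA in a differentiation medium of DMEM, 10% serum and NAA, and LIF is not among the components listed for it. The composition of the ES cell medium is not given, so an effect of RA and an effect of the change of medium, LIF or serum cannot be told apart in any comparison with the untreated cells. All groups were trypsinized and placed on gelatin for 30 min before collection, and the protocols differ on whether attached or unattached cells were kept. Whether replicates were grown as separate cultures is not stated in the labels, so p-values measure the spread between these arrays, which may be technical. These are bulk samples, in which fewer cells of a type and less RNA per cell cannot be told apart.

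LIF binds a pair of receptor chains at the cell surface, LIFR and gp130, the product of Il6st. The JAK kinases attached to the chains then phosphorylate STAT3, which enters the nucleus and activates genes, among them Socs3 and kinases of the Pim family. SOCS3 binds gp130 and the JAK kinases and dampens the signal. In mouse ES cells grown with serum, LIF acting through STAT3 holds the cells in the undifferentiated state. The arrays measure transcripts, and phosphorylated STAT3, the active form, was not measured.

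Array medians lay between 6.05 and 6.10 on the log2 scale. The RA-induced genes Cyp26a1, which breaks down RA, and Rarb, an RA receptor, were 6.11 and 1.88 higher on the log2 scale at 2 h than in untreated cells. All 10 ES cell markers were above the array median on every array, and their mean lay between 12.4 and 12.7. Untreated replicate C stood apart: its correlation with untreated A and B over all probe sets was 0.994 and 0.993, where the other pairs of replicates gave 0.997 to 0.998. In it 18 of the 23 probe sets were lower than the average of the other two untreated arrays, with a median difference of -0.22. Of 24 measured feeder fibroblast markers, 18 were also lower in it, with a median difference of -0.56. All 8 primitive endoderm markers were lower too, with a median difference of -0.17. Lower were also 3 of 10 ES cell markers (median 0.064) and 4 of 8 immediate early genes (median -0.048). Counts of the 23 probe sets are therefore also given without this array, and p-values are from limma with Benjamini-Hochberg adjustment over all probe sets.

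Of the 8 genes, 6 were lower after 4 h and 6 h of RA by their brightest probe set, and Pim1 was higher from 2 h on. At 2 h, 2 probe sets rose, both of Pim1, and 2 fell, both of Stat3. At 4 h 3 probe sets rose and 10 fell, and at 6 h 3 rose and 11 fell. The probe sets called were thus 17.4%, 56.5% and 60.9% of the 23 at 2 h, 4 h and 6 h. Over all probe sets 1.81%, 18.7% and 20.6% were called. As shares of all probe sets, 0.904% rose and 0.906% fell at 2 h. At 4 h 9.34% rose and 9.36% fell, and at 6 h 10.8% rose and 9.83% fell. The median log2 difference of the 23 probe sets was -0.13, -0.28 and -0.34, beside 0.0082, 0.0057 and -0.011 over all probe sets. Without untreated replicate C, 7, 13 and 15 of the 23 were called at the same times. With all arrays, 14, 16 and 17 of the 23 had an unadjusted limma p under 0.05. The share of all probe sets with such a p is not given here. The adjustment was stricter at 2 h: an unadjusted p of 0.00116 (Pim2) became 0.0572 there, and one of 0.00114 (Jak1 1433805_at) became 0.0108 at 4 h. Counts of calls at 2 h and later are therefore not counts at the same unadjusted p. Calls were more frequent among brighter probe sets in general. In a fit of only the 22542 probe sets with a mean above the median of all values, 1128, 8392 and 9184 were called. Member probe sets called in that fit numbered 5, 13 and 15. Not all of the 23 were in it: Lifr 1425107_a_at, Jak1 1433804_at and Pim3 1438956_x_at had means under that median and were left out.

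Counted once per gene by the brightest probe set (the highest mean over all arrays), Pim1 rose at all 3 times. Stat3 fell at 2 h, and Lifr, Il6st, Jak1, Stat3, Pim2 and Pim3 fell at 4 h and at 6 h. That is 1 of 8 genes higher at each time, and 1, 6 and 6 of 8 lower. Over all genes counted the same way, 1.25%, 11.2% and 13.3% rose and 0.781%, 12.5% and 13.1% fell at 2 h, 4 h and 6 h. Socs3 was the only one of the 8 whose brightest probe set passed the test at none of the 3 times.

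**Figure D1:**
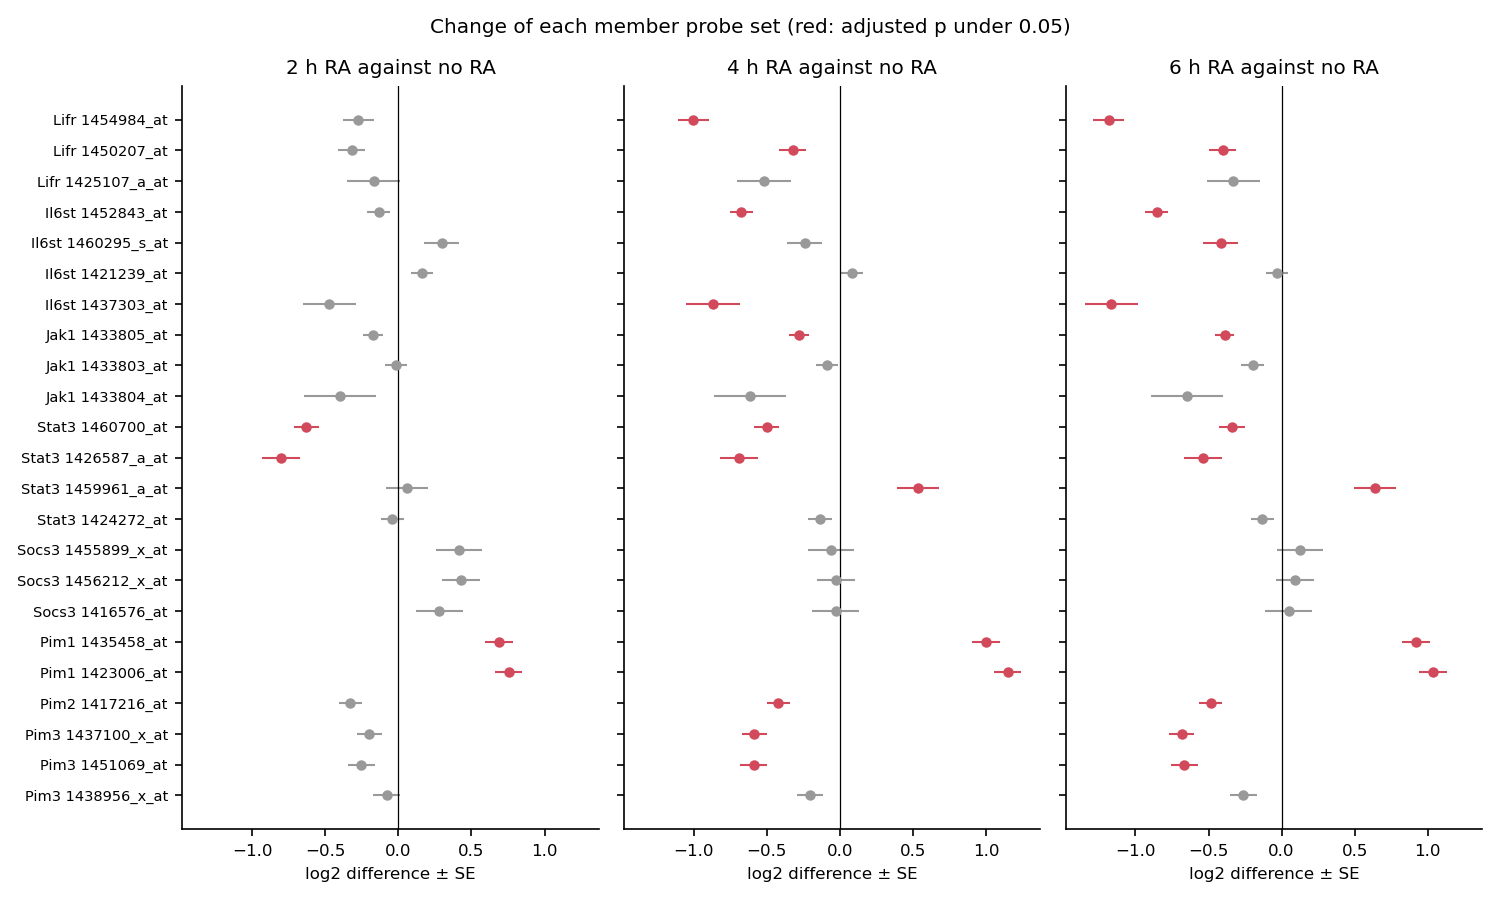
Difference of each of the 23 probe sets from untreated cells at 2 h, 4 h and 6 h of RA, in log2 units (x axis), with the standard error of the limma fit as the bar and calls at an adjusted p under 0.05 in red. Both Pim1 probe sets lie to the right of 0 at all 3 times, and the Stat3 probe sets lie on both sides of 0 at 4 h and 6 h.

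Lifr encodes the chain that binds LIF directly. Its probe set 1454984_at gave log2 signals of 10.09, 10.23 and 9.78 in untreated replicates A, B and C, then 9.67, 9.82 and 9.78 at 2 h. It gave 9.09, 9.05 and 8.94 at 4 h and 8.93, 8.88 and 8.74 at 6 h. The 2 h arrays overlapped the untreated ones through untreated replicate C, and all 6 arrays of 4 h and 6 h lay below all 6 others. The log2 difference from untreated cells was -0.27 ± 0.11 (SE) at 2 h, which did not pass the test (adjusted p = 0.235). Lifr fell by 1.00 at 4 h (2.01-fold lower, adjusted p = 6.09e-05) and by 1.18 at 6 h (2.27-fold lower, adjusted p = 1.48e-05). Without untreated replicate C the difference at 2 h was -0.40 and passed (adjusted p = 0.0278).

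The other probe sets of Lifr lay near the median of all values, 6.07. Probe set 1450207_at read 6.47, 6.48 and 6.18 in untreated cells, 6.07, 6.13 and 5.97 at 2 h, 6.01, 6.09 and 6.06 at 4 h, and 6.11, 5.91 and 5.91 at 6 h. Its untreated arrays lay above all 9 RA arrays. The difference at 2 h was -0.32 and did not pass (adjusted p = 0.111). The probe set fell by 0.32 at 4 h (adjusted p = 0.0264) and by 0.40 at 6 h (adjusted p = 0.00762). Its step from 2 h to 4 h was -0.0047 (adjusted p = 0.982). The falls at 4 h and 6 h were smaller than those of the brightest probe set by 0.68 and 0.78 (adjusted p = 0.000639 and 0.000247 for the difference between the probe sets). The call at 4 h was lost without untreated A or B or without any of the 4 h arrays, with adjusted p from 0.0563 to 0.0933. Without untreated replicate C this probe set was also called at 2 h (-0.42, adjusted p = 0.0173). Probe set 1425107_a_at was under the median on 9 of 12 arrays and passed at no time, with differences of -0.17, -0.52 and -0.33. It passed at 4 h without 4 h replicate C (adjusted p = 0.0496) or 6 h replicate A (adjusted p = 0.032), and at 6 h without 6 h replicate A (adjusted p = 0.0499).

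Il6st encodes gp130, the chain shared by the receptors of the IL-6 family of cytokines. Its brightest probe set, 1452843_at, read 10.19, 10.20 and 9.93 in untreated cells, 9.96, 9.96 and 9.99 at 2 h, 9.46, 9.40 and 9.43 at 4 h, and 9.33, 9.17 and 9.25 at 6 h. As for Lifr, the 4 h and 6 h arrays lay below all untreated and 2 h arrays. The difference was -0.13 ± 0.080 at 2 h (adjusted p = 0.451). Il6st fell by 0.68 at 4 h (1.60-fold lower, adjusted p = 0.000131) and by 0.85 at 6 h (1.81-fold lower, adjusted p = 1.97e-05).

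The further Il6st probe sets did not follow one course. Probe set 1437303_at read 6.67, 7.07 and 6.58 in untreated cells, 6.17, 5.99 and 6.74 at 2 h, 5.91, 5.94 and 5.86 at 4 h, and 5.87, 5.45 and 5.50 at 6 h. It fell by 0.87 at 4 h (adjusted p = 0.00562) and fell by 1.16 from untreated cells at 6 h (adjusted p = 0.000732), and all its 4 h and 6 h arrays were under the median of all values. Probe set 1460295_s_at was 0.30 above untreated cells at 2 h (adjusted p = 0.253), -0.24 from them at 4 h (adjusted p = 0.198), and fell by 0.42 at 6 h (adjusted p = 0.0253). That call was lost without untreated replicate B or without 6 h replicate A or C (adjusted p from 0.077 to 0.0972). Probe set 1421239_at, which shares a target accession with 1460295_s_at, differed by 0.16, 0.080 and -0.032 at the 3 times and passed at none. It differed from the brightest probe set by 0.75 at 4 h and 0.82 at 6 h (adjusted p = 0.000633 and 0.000333).

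Jak1 encodes the kinase that gp130 depends on for signalling. Probe set 1433805_at read 9.75, 9.88 and 9.79 in untreated cells, 9.64, 9.57 and 9.69 at 2 h, 9.52, 9.53 and 9.53 at 4 h, and 9.50, 9.35 and 9.41 at 6 h. No group overlapped another. The difference at 2 h was -0.17 ± 0.067 (adjusted p = 0.231), and Jak1 fell by 0.28 at 4 h (adjusted p = 0.0108) and by 0.39 at 6 h (1.31-fold lower, adjusted p = 0.00127). Probe set 1433803_at differed by -0.014, -0.091 and -0.20 and passed at none of the 3 times, though it passed at 6 h without 6 h replicate C (-0.26, adjusted p = 0.0455). Probe set 1433804_at was dim and varied, from 5.53 to 6.34 in untreated cells, and its differences of -0.40, -0.62 and -0.65 did not pass. Without untreated replicate C it was called at 4 h (adjusted p = 0.0499) and 6 h (adjusted p = 0.0377), and without 2 h replicate C as well (adjusted p = 0.0436 and 0.0323). The 3 Jak1 probe sets share 1 target accession.

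**Figure D2:**
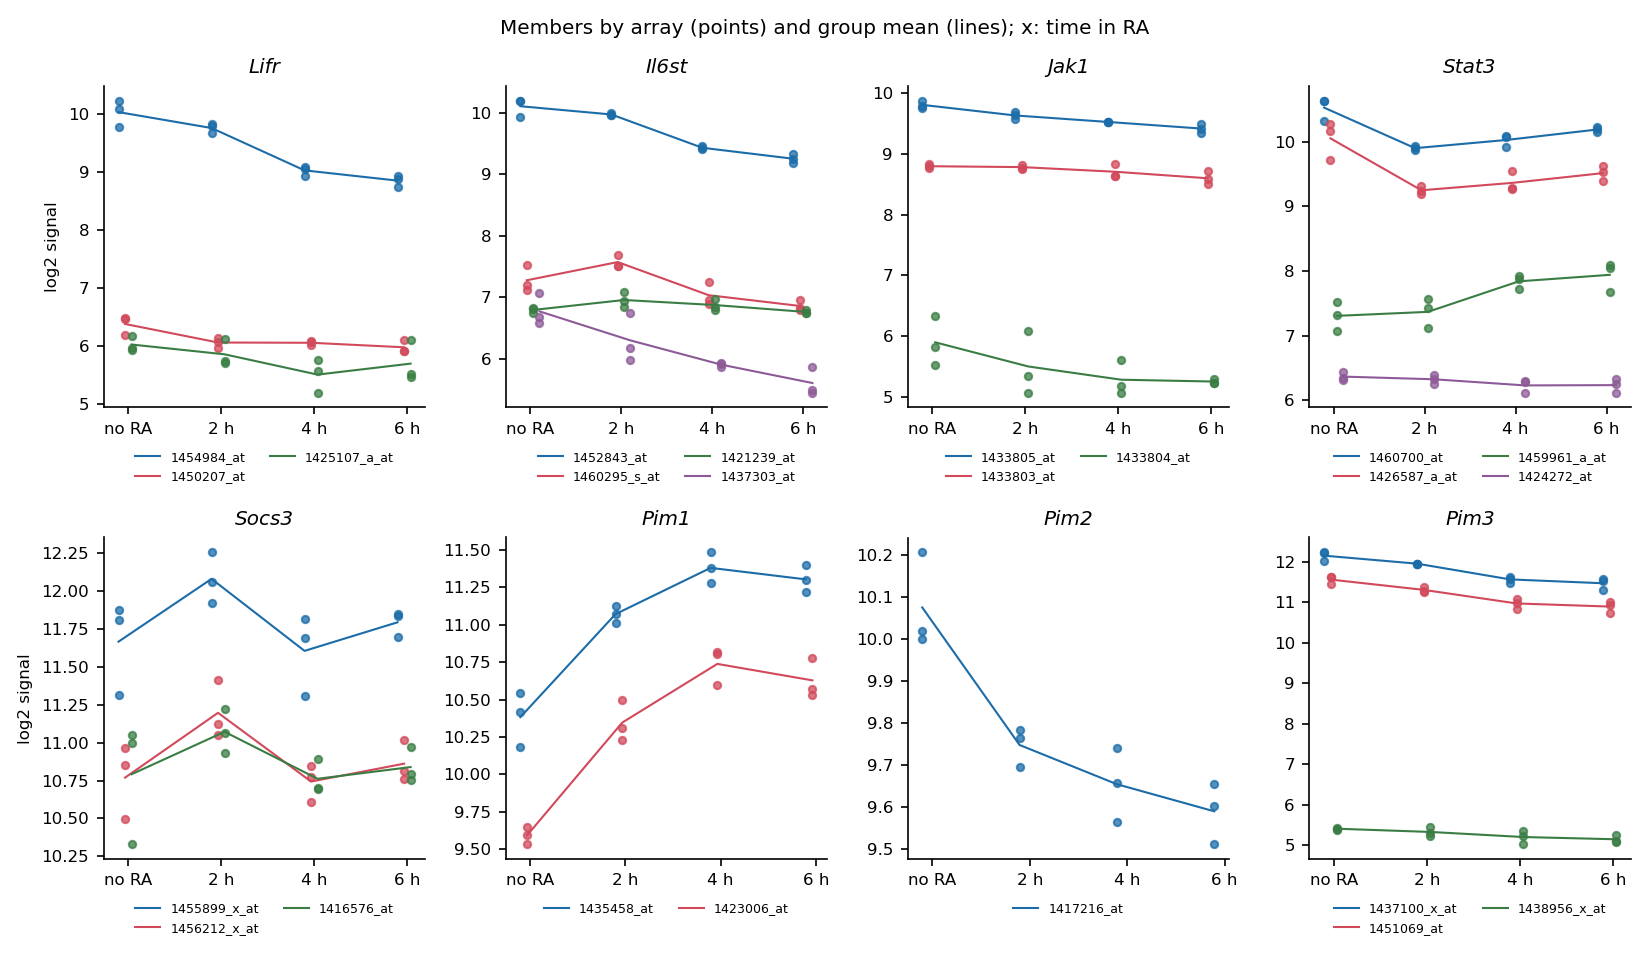
Log2 signal of every probe set of the 8 genes on each of the 12 arrays (points), with group means joined by lines, by time in RA (x axis) and with a scale of its own for each gene. The brightest probe sets of Lifr and Il6st step down between 2 h and 4 h, Stat3 1460700_at and 1426587_a_at drop by 2 h, and Pim1 climbs to 4 h.

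Stat3, the transcription factor of the pathway, is where the probe sets part ways. The brightest, 1460700_at, read 10.63, 10.64 and 10.32 in untreated cells, 9.88, 9.93 and 9.90 at 2 h, 9.92, 10.09 and 10.08 at 4 h, and 10.23, 10.15 and 10.20 at 6 h. All RA arrays lay below all untreated arrays, with the lowest values at 2 h. This probe set fell by 0.63 ± 0.087 at 2 h (1.55-fold lower, adjusted p = 0.00269), by 0.50 at 4 h (adjusted p = 0.0017) and by 0.34 at 6 h (adjusted p = 0.0151). From 2 h to 6 h it then rose by 0.29 (adjusted p = 0.0315). The call at 6 h was lost without untreated A (adjusted p = 0.0564), untreated B (adjusted p = 0.0617) or 6 h replicate B (adjusted p = 0.0551). The rise from 2 h to 6 h was lost on leaving out any 2 h or 6 h array (adjusted p from 0.0595 to 0.0957). In a fit of only the groups compared, the fall at 2 h had an adjusted p of 0.0513 and that at 6 h of 0.0704.

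Stat3 1426587_a_at moved with it: 10.17, 10.28 and 9.71 in untreated cells, 9.25, 9.20 and 9.31 at 2 h, 9.29, 9.55 and 9.26 at 4 h, and 9.53, 9.62 and 9.40 at 6 h. Again no RA array reached the lowest untreated array, replicate C. It fell by 0.80 at 2 h (1.75-fold lower, adjusted p = 0.00823), by 0.69 at 4 h (adjusted p = 0.00301) and by 0.54 at 6 h (adjusted p = 0.0114), with adjusted p of 0.0768 at 2 h and 0.0523 at 6 h in a fit of only the groups compared. The difference between these 2 probe sets passed at none of the times, and over the 12 arrays their signals had a Pearson r of 0.952.

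Stat3 1459961_a_at went the other way. It read 7.52, 7.32 and 7.07 in untreated cells, 7.42, 7.56 and 7.12 at 2 h, 7.87, 7.92 and 7.73 at 4 h, and 8.05, 8.09 and 7.68 at 6 h. The 2 h arrays overlapped the untreated ones, and all 6 arrays of 4 h and 6 h lay above both groups. The difference was 0.062 ± 0.14 at 2 h (adjusted p = 0.877), and it rose by 0.53 at 4 h (1.45-fold, adjusted p = 0.0212) and by 0.64 at 6 h (1.55-fold, adjusted p = 0.00746). The call at 4 h was lost without untreated replicate C (adjusted p = 0.0688), 4 h replicate A (adjusted p = 0.0669) or 4 h replicate B (adjusted p = 0.074), and the call at 6 h was kept on leaving out each of the 12 arrays. Over the 12 arrays its signal had an r of -0.145 with 1460700_at.

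Stat3 1424272_at stayed between 6.11 and 6.44 on all arrays, close to the median of all values, and differed by -0.042, -0.14 and -0.13 at the 3 times (adjusted p from 0.287 to 0.844). The disagreement was tested directly as the difference in log2 signal between each probe set and 1460700_at on the same array. The change of 1459961_a_at minus that of the brightest was 0.69 ± 0.14 at 2 h (adjusted p = 0.049), when the brightest fell and it did not pass, 1.04 at 4 h (adjusted p = 0.000723) and 0.98 at 6 h (adjusted p = 0.000842). For 1424272_at, whose differences from untreated cells were nearer to 0 than those of the brightest, the same quantity was 0.59 at 2 h (adjusted p = 0.0195), 0.37 at 4 h (adjusted p = 0.0263) and 0.21 at 6 h (adjusted p = 0.181).

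The Stat3 disagreement at 4 h and 6 h for 1459961_a_at was kept on leaving out each array. At 2 h it was lost on leaving out each of the arrays except 6 h replicate C (adjusted p from 0.0535 to 0.195). For 1424272_at it was lost without untreated A or B or any array of the RA time compared, at 2 h (adjusted p from 0.0522 to 0.0929) and at 4 h (adjusted p from 0.0652 to 0.0949). The position of each probe set in the Stat3 transcripts is not given here. The platform's suffix _a marks probe sets that match several transcripts of one gene, and 1426587_a_at and 1459961_a_at both carry it. Whether the transcripts they match differ was not tested. The suffix _x, on 2 probe sets each of Socs3 and Pim3, the brightest included, and the suffix _s of Il6st 1460295_s_at mark possible cross-hybridization. Whether transcripts of other genes gave signal in those probe sets was not tested.

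**Figure D3:**
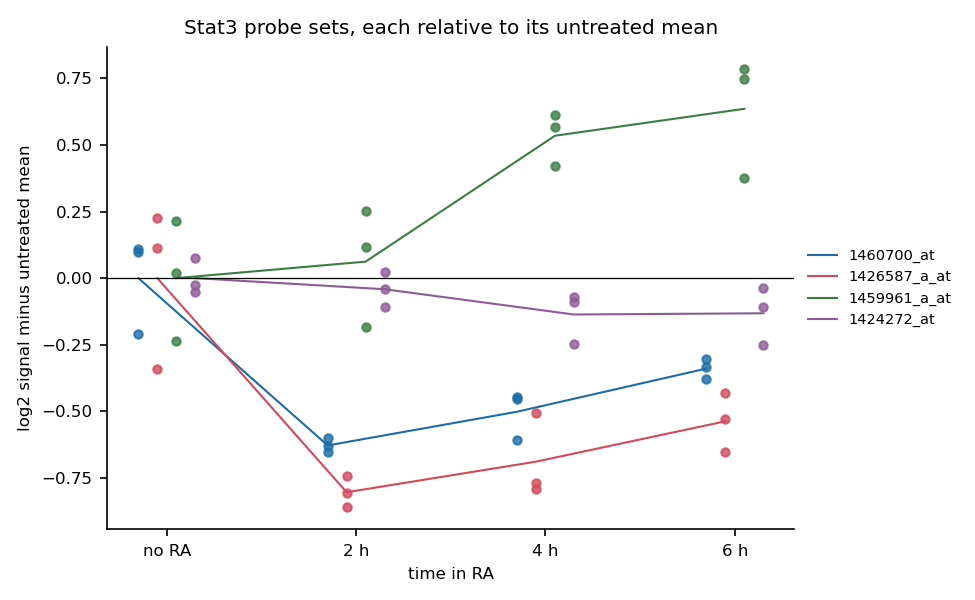
The 4 Stat3 probe sets on each array (points), as log2 signal minus that probe set's untreated mean (y axis), with group means joined by lines, by time in RA. Probe sets 1460700_at and 1426587_a_at lie below 0 on all 9 RA arrays, while 1459961_a_at lies above its untreated values at 4 h and 6 h.

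Over the 8 genes, 15 probe sets could be set against the brightest probe set of their gene. At 2 h, 4 h and 6 h, 2, 6 and 6 of the 15 changed unlike it, where 0.698%, 14.7% and 15.8% of the 16752 further probe sets on the array did. Besides Stat3 these were of Lifr, Il6st and Pim3, and in each the difference from untreated cells was less negative in the dimmer probe set than in the brightest. Lifr 1425107_a_at differed by 0.85 at 6 h (adjusted p = 0.0111), and Il6st 1460295_s_at by 0.43 at 4 h and 0.44 at 6 h (adjusted p = 0.0421 and 0.0381). The Il6st 1460295_s_at call at 4 h was lost without untreated A, any 2 h or 4 h array, or 6 h replicate A or C (adjusted p from 0.0502 to 0.153). Its call at 6 h was lost without untreated A, 2 h replicate B or any 6 h array (adjusted p from 0.0513 to 0.137). The count at 4 h was 3 without untreated A, 4 h replicate A or 4 h replicate B, and the count at 2 h was 0 or 1 on leaving out each array except 6 h replicate C. The counts were 1, 6 and 7 without untreated replicate C. Several of these probe sets read near the median of all values, and signal was not tested against background. Stat3 1459961_a_at, at 7.07 or above on every array, was the one that rose while its gene's brightest probe set fell.

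Socs3 is a STAT3 target whose product inhibits the receptor. Probe set 1455899_x_at read 11.81, 11.88 and 11.32 in untreated cells, 12.26, 11.93 and 12.06 at 2 h, 11.82, 11.69 and 11.31 at 4 h, and 11.84, 11.70 and 11.85 at 6 h. The 2 h arrays lay above all untreated arrays, while those of 4 h and 6 h overlapped them. The differences of 0.41 ± 0.16 at 2 h, -0.061 at 4 h and 0.13 at 6 h did not pass (adjusted p = 0.228, 0.854 and 0.654). Probe sets 1456212_x_at and 1416576_at gave 0.43 and 0.28 at 2 h (adjusted p = 0.133 and 0.434) and between -0.030 and 0.092 later, none of which passed. The signals of the 3 probe sets had r between 0.848 and 0.945 over the 12 arrays.

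Between RA times, Socs3 1456212_x_at fell by 0.45 from 2 h to 4 h (adjusted p = 0.0328). It read 11.41, 11.05 and 11.12 at 2 h and 10.84, 10.78 and 10.61 at 4 h, with no overlap. The same step was -0.48 for 1455899_x_at (adjusted p = 0.0591) and -0.31 for 1416576_at. The call of 1456212_x_at was lost without 2 h replicate A or C or any 4 h array (adjusted p from 0.051 to 0.132). Without untreated replicate C, which enters this step only through the shared spread, 1455899_x_at and 1416576_at were called too (adjusted p = 0.0178 and 0.0321). Without 4 h replicate A, 1455899_x_at had an adjusted p of 0.0491. From 2 h to 6 h 1456212_x_at differed by -0.34, which passed without untreated replicate C (adjusted p = 0.0344).

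The Socs3 promoter is shown because it was the one member promoter that held the letters of a STAT site. The 250 bases before each start in RefSeq (GRCm38.p6) were searched, with all 8 genes matched and 10 starts in all. The motif TTCNNNGAA, which reads the same on both strands, was found in Socs3 alone, 154 to 146 bases before the start, and is held by 7.02% of 32851 promoters. The spaced form TTCNNNNGAA, held by 5.85%, was found in no member. The Socs3 window lies at chr11:117969367-117969616 on the minus strand, and capitals mark the match.
Socs3: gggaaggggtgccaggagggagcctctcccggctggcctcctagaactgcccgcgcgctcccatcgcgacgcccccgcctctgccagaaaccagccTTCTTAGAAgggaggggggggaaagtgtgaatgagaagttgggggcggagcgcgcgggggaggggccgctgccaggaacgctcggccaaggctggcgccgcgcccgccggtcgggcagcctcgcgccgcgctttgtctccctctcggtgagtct
A match is a description of the letters and not of binding, and a window without one says nothing about the factor.

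The Pim kinases are serine and threonine kinases that promote survival and growth, and their genes are known targets of STAT3 in several cell types. They did not move together. Pim1 1435458_at read 10.42, 10.18 and 10.54 in untreated cells, 11.13, 11.07 and 11.01 at 2 h, 11.28, 11.38 and 11.49 at 4 h, and 11.22, 11.30 and 11.40 at 6 h. Every RA array lay above every untreated array. Pim1 rose by 0.69 ± 0.095 at 2 h (1.61-fold, adjusted p = 0.00258), by 1.00 at 4 h (2.00-fold, adjusted p = 3.09e-05) and by 0.92 at 6 h (1.89-fold, adjusted p = 3.84e-05).

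The second Pim1 probe set, 1423006_at, gave the same course. It read 9.59, 9.53 and 9.65 in untreated cells, 10.31, 10.23 and 10.50 at 2 h, 10.60, 10.80 and 10.82 at 4 h, and 10.53, 10.57 and 10.78 at 6 h. It rose by 0.75, 1.15 and 1.04 at the 3 times (adjusted p = 0.00134, 1.08e-05 and 1.66e-05), and all 6 Pim1 calls were kept under each alternative at this threshold. From 2 h to 4 h Pim1 rose further, by 0.31 and 0.39 for the 2 probe sets (adjusted p = 0.0437 and 0.0137). The first of these later rises was lost on leaving out any of 8 arrays (all except untreated B and C, 4 h replicate A and 6 h replicate C, adjusted p from 0.0515 to 0.146). The second was lost without 2 h replicate B or 4 h replicate B or C (adjusted p from 0.0546 to 0.0631).

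Pim2 has 1 probe set, 1417216_at, which read 10.21, 10.02 and 10.00 in untreated cells, 9.76, 9.78 and 9.70 at 2 h, 9.66, 9.74 and 9.56 at 4 h, and 9.60, 9.66 and 9.51 at 6 h. All untreated arrays lay above all RA arrays. The difference at 2 h was -0.33 ± 0.078 with an adjusted p of 0.0572, and 0.0356 without untreated replicate C. Pim2 fell by 0.42 at 4 h (1.34-fold lower, adjusted p = 0.00248) and by 0.49 at 6 h (1.40-fold lower, adjusted p = 0.000832).

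Pim3 1437100_x_at read 12.24, 12.21 and 12.01 in untreated cells, 11.96 on all 3 arrays at 2 h, 11.63, 11.58 and 11.49 at 4 h, and 11.57, 11.54 and 11.31 at 6 h. The untreated arrays lay above all RA arrays, and those of 2 h above those of 4 h and 6 h. The difference of -0.20 ± 0.086 at 2 h did not pass (adjusted p = 0.293). Pim3 fell by 0.59 at 4 h (adjusted p = 0.000572) and by 0.68 at 6 h (1.61-fold lower, adjusted p = 0.000163). Probe set 1451069_at gave nearly the same values, -0.25, -0.59 and -0.67, and had an r of 0.982 with it.

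The third Pim3 probe set, 1438956_x_at, read 5.02 to 5.46 and was under the median of all values on all 12 arrays. Its differences of -0.079, -0.21 and -0.26 did not pass, except at 6 h without 4 h replicate A (adjusted p = 0.0472) or C (adjusted p = 0.0367). It fell less than the brightest by 0.38 at 4 h and 0.42 at 6 h (adjusted p = 0.0222 and 0.0129), and the former was lost without untreated A or B or 4 h replicate A or B (adjusted p from 0.0624 to 0.0821).

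The promoters of Lifr and Pim3 are shown because they alone of the members held the letters of a half-site of the RA receptor. The other members, Il6st among them, held none in this window. Such a match describes letters and not binding, and whether it bears on the changes was not tested. The half-site AGGTCA was searched on both strands in the same windows and is held by 14.0% of all promoters. Its paired forms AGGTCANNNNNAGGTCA and AGGTCANNAGGTCA, each of which contains it, were held by 0.00913% each and by no member. Lifr held it 247 to 242 bases before the first of its 2 starts (chr15:7129322-7129571, plus strand). Pim3 held it 171 to 166 bases before its start (chr15:88861944-88862193, plus strand). Both matches are on the minus strand, so they read TGACCT, in capitals.
Lifr: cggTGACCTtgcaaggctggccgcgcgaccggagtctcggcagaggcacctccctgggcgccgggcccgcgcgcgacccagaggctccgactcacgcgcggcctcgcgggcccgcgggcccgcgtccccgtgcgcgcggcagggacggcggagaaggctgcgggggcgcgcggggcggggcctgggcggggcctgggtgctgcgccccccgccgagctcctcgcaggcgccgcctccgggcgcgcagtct
Pim3: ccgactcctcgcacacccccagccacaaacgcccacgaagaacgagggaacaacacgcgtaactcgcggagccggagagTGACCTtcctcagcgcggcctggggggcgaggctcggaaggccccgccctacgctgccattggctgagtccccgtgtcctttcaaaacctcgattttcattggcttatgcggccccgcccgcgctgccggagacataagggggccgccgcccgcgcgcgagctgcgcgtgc

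Set side by side between RA times, the step from 2 h to 4 h held most of the movement. In it 3 probe sets rose and 6 fell, 39.1% of the 23, against 16.3% of all probe sets. In the fit of only the 22542 brighter probe sets, 7516 were called in this step, 10 of them members. Lifr 1454984_at fell by 0.73 (adjusted p = 0.000752), Il6st 1452843_at by 0.54 (adjusted p = 0.000813) and Il6st 1460295_s_at by 0.54 (adjusted p = 0.00855). Pim3 1437100_x_at fell by 0.39 (adjusted p = 0.00887) and 1451069_at by 0.34 (adjusted p = 0.0263). Stat3 1459961_a_at rose by 0.47 (adjusted p = 0.042). The calls of Lifr, of both Il6st probe sets and of Pim3 1437100_x_at were kept on leaving out each array. That of Pim3 1451069_at was lost without any 2 h array or 4 h replicate A or C (adjusted p from 0.0556 to 0.104). That of Stat3 1459961_a_at was lost without untreated B, 2 h replicate A or C, any 4 h array or 6 h replicate A (adjusted p from 0.0506 to 0.163). The count of 9 was 4 without 4 h replicate C, 5 without 2 h replicate A, 2 h replicate C or 4 h replicate B, and 11 without untreated replicate C.

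From 4 h to 6 h none of the 23 probe sets passed limma's test, and 1 had an unadjusted p under 0.05, Il6st 1452843_at with a difference of -0.18 (chosen after its values were seen). Over all probe sets 0.173% were called in that step. From 2 h to 6 h, 3 rose and 7 fell, 43.5% of the 23, against 22.9% of all probe sets. In the fit of only the 22542 brighter probe sets, 9580 were called from 2 h to 6 h. That fit kept the member calls of the main fit and added Il6st 1421239_at (-0.19, adjusted p = 0.0397). The 10 calls of the main fit were those of the 4 h step except for Socs3 1456212_x_at and Pim1 1435458_at. Il6st 1437303_at (-0.69), Jak1 1433805_at (-0.22) and Stat3 1460700_at (0.29) joined them. The Jak1 call (adjusted p = 0.0349) was lost without 2 h replicate A or C or 6 h replicate B or C (adjusted p from 0.0792 to 0.126). The Il6st 1437303_at call (adjusted p = 0.0163) was lost without 2 h replicate C or 6 h replicate B or C (adjusted p from 0.0555 to 0.0653). The count of 10 was 5 without 6 h replicate B, 6 without 2 h replicate C or 6 h replicate C, and 12 without untreated replicate C.

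The genes whose signal over the 12 arrays was most like that of each member were named from the brightest probe sets. All points share the same arrays and the same step at RA, so these values describe and do not test. Lifr was most like Pdgfc (r = 0.987), Il6st (0.986) and Lpcat1 (0.986), and Il6st was most like Bach2 (0.993), Pdgfc (0.992) and Lpcat1 (0.991). Pim3 was most like Mycn (0.986), Lifr (0.985) and Rtn4 (0.980). Il6st was thus in the short list of Lifr and Lifr in that of Pim3, and no other member was in any of these lists. Mycn differed by -0.37, -1.16 and -1.51 from untreated cells at the 3 times, and Pdgfc by -0.33, -1.84 and -2.49.

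The other members had other neighbours. Jak1 was most like Lmna (0.958), Slc44a1 (0.953) and Notch1 (0.946). Stat3 1460700_at was most like Zfp292 (0.915), Rgs2 (0.914) and Stk17b (0.910), with Rgs2 at -0.86, -0.58 and -0.30, lowest at 2 h as Stat3 was. Socs3 was most like Etv3 (0.935), Etaa1 (0.897) and Zfp963 (0.885). Pim1 was most like Gjb1 (0.979), Adgra2 (0.971) and Itpk1 (0.969), all with positive differences at each time. Pim2 was most like Epb41l4a (0.969), Sulf1 (0.960) and Tmem245 (0.934).

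The rest of the pathway was read, each gene by its brightest probe set, from lists of 56 further genes, of which 51 were measured. Of these 1, 8 and 8 rose and 3, 7 and 9 fell at 2 h, 4 h and 6 h, with a median log2 difference of -0.055, -0.064 and 0.0042, beside 0.0043, 0.0023 and -0.014 over all genes. Over all genes 1.25%, 11.2% and 13.3% rose and 0.781%, 12.5% and 13.1% fell. Among 6 measured gp130 cytokines, none passed at 2 h (2 had an unadjusted p under 0.05). Clcf1, a cytokine of this family, rose by 0.45 at 4 h (adjusted p = 0.00759) and by 0.35 at 6 h (adjusted p = 0.0273), and the 6 h count of 1 was 0 on leaving out untreated B or any 6 h array. Lif itself, named after its values were seen, differed from untreated cells by 0.40 ± 0.18, 0.29 and -0.18 and passed at none of the times. From 2 h to 6 h it fell by 0.58 (adjusted p = 0.0396). Among 4 further receptor chains Cntfr, which joins LIFR and gp130 in the CNTF receptor, rose by 1.08 at 4 h (adjusted p = 0.000827) and by 1.24 at 6 h (adjusted p = 0.000265), while Lifr and Il6st fell. None of these 4 chains fell, except for 1 at 6 h without untreated replicate C.

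Of the 3 other JAK kinases none passed against untreated cells, and 0, 2 and 2 had an unadjusted p under 0.05 at the 3 times. The largest difference from untreated cells was that of Jak3, 0.30 at 4 h (adjusted p = 0.0641). Between RA times Jak3 rose by 0.49 from 2 h to 4 h (adjusted p = 0.00646) and by 0.43 from 2 h to 6 h (adjusted p = 0.0096). Without 6 h replicate A or C, 1 JAK rose at 4 h, and without untreated A, 1 fell at 4 h and 1 at 6 h. Among 5 measured STAT factors other than Stat3, Stat4 rose by 0.50 at 4 h (adjusted p = 0.000638) and by 0.80 at 6 h (adjusted p = 2.01e-05). Stat5a fell by 0.40 and 0.41 (adjusted p = 0.0101 and 0.008) and Stat5b by 0.40 and 0.39 (adjusted p = 0.00591 and 0.00682) at 4 h and 6 h, Stat5a being under the median of all values on 10 of 12 arrays. The brightest probe sets of Stat5a and Stat5b both carry the suffix _a. Leaving out suffixed probe sets therefore removed them, and neither gene was called then. Stat5a and Stat5b are close paralogues, and whether their probe sets share signal was not tested. At 6 h, 2 of the 5 factors rose without untreated replicate C.

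Among 14 inhibitors other than Socs3, none rose, and 1, 3 and 3 fell at 2 h, 4 h and 6 h, where 0.781%, 12.5% and 13.1% of all genes fell. Socs2 fell by 0.81 ± 0.16 at 2 h (adjusted p = 0.0195) and differed by -0.26 and -0.19 later. The 2 h count of 1 was 0 without untreated A or B or without 2 h replicate A or B. At 4 h and 6 h Socs7 fell by 0.26 at both times (adjusted p = 0.0213 and 0.0199), Pias1 by 0.38 and 0.29 (adjusted p = 0.00128 and 0.00552) and Pias4 by 0.34 and 0.28 (adjusted p = 0.00182 and 0.0047). The PIAS proteins bind STATs and limit their activity on DNA. The 6 h count of 3 was 5 without untreated replicate C, and 2 without untreated B or 6 h replicate A or B. The 4 h count of 3 was 4 without untreated replicate C, and 2 without untreated B or 4 h replicate B or C. Without untreated replicate C, 1 inhibitor rose at 6 h. Of the 4 genes that link gp130 to ERK, none passed at 2 h or 4 h (1 and 2 had an unadjusted p under 0.05), except for 1 that fell at 4 h without untreated replicate C. At 6 h Ptpn11 (SHP2) rose by 0.26 and Grb2 fell by 0.24 (adjusted p = 0.0204 and 0.0175). The call of Ptpn11 was lost without 6 h replicate C, and that of Grb2 without untreated A or B or 6 h replicate B.

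Of the 15 listed targets of LIF and STAT3, 1, 5 and 4 rose and 2, 2 and 3 fell at 2 h, 4 h and 6 h. Over all genes 1.25%, 11.2% and 13.3% rose and 0.781%, 12.5% and 13.1% fell. Klf4, a STAT3-driven factor of the undifferentiated state, fell at all 3 times, with differences of -0.64 ± 0.083, -1.16 and -1.23 (adjusted p = 0.00152, 3.57e-06 and 1.74e-06). Tfcp2l1, another such factor, fell by 0.42 at 4 h (adjusted p = 0.000953) and 0.85 at 6 h (adjusted p = 5.1e-06). Gbx2, which can hold ES cells undifferentiated without LIF and is also a gene of the early hindbrain, rose by 1.74 at 4 h (adjusted p = 0.000296) and 1.70 at 6 h (adjusted p = 0.00027). Cebpd fell by 0.46 at 2 h (adjusted p = 0.0457) and was above untreated cells by 1.12 at 4 h (adjusted p = 2.57e-05) and 1.06 at 6 h (adjusted p = 2.6e-05).

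The remaining called targets were named after their values were seen. Cebpb rose by 0.59 at 4 h and 0.82 at 6 h (adjusted p = 0.00126 and 0.000104), Bcl3 by 0.35 and 0.72 (adjusted p = 0.0273 and 0.000284), and Mcl1 by 0.49 at 2 h and 0.30 at 4 h (adjusted p = 0.0232 and 0.0477). Sgk1 fell by 0.45 at 6 h (adjusted p = 0.0179). Some of these counts rest on single arrays: leaving out each array in turn, they ranged from 0 to 2, 3 to 5 and 4 to 6 for rises and from 1 to 3, 2 to 4 and 2 to 6 for falls. At 2 h the count of rises was 0 without untreated A or any 2 h array, and 2 without untreated B or 6 h replicate C. The count of falls at 2 h was 1 without untreated A, any 2 h or 4 h array or 6 h replicate A, and 3 without 6 h replicate C. At 4 h rises numbered 3 without 4 h replicate B or C, and falls 4 without untreated replicate C. At 6 h rises numbered 6 without untreated B, and falls 6 without untreated C and 2 without untreated A or B or 6 h replicate C.

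**Figure D4:**
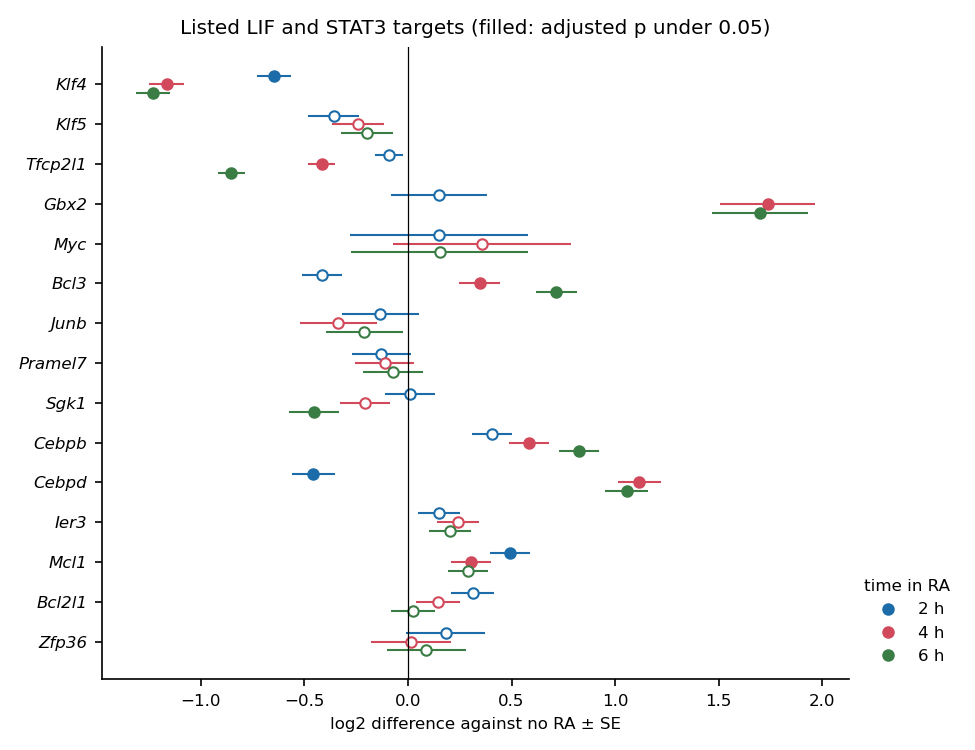
The 15 listed LIF and STAT3 targets, each at 2 h, 4 h and 6 h of RA as log2 difference from untreated cells (x axis) with the standard error as the bar, and filled points for calls at an adjusted p under 0.05. Klf4 lies left of 0 at all 3 times, and Gbx2, Cebpb and Cebpd lie right of 0 at 4 h and 6 h.

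Markers of other cell types and states were also read from the brightest probe set of each gene. Those named were chosen after their values were seen. Among all genes 1.25%, 11.2% and 13.3% rose and 0.781%, 12.5% and 13.1% fell at 2 h, 4 h and 6 h. Of the 10 ES cell markers, Nanog rose at 2 h and Dppa4 at 4 h and 6 h, and 5 fell at 4 h and 6 h, namely Sox2, Zfp42, Esrrb, Tdgf1 and Fgf4. Of the 24 feeder fibroblast markers none was called at 2 h (8 had an unadjusted p under 0.05). At 4 h, 5 of them rose (Col5a2, Lox, Thbs2, Twist1 and Twist2), at 6 h 3 rose (Cdh11, Twist1 and Twist2), and Mmp2 fell at both times. Their summed signal on the log2 scale ran from 12.70 to 13.27 in untreated cells, 13.04 to 13.23 at 2 h, 13.09 to 13.32 at 4 h and 12.94 to 13.13 at 6 h, lowest in untreated replicate C.

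Of the 8 primitive endoderm markers Gata6 rose and Dab2 fell at 4 h and 6 h. That is 1 of 8 in each direction, where 11.2% and 13.3% of all genes rose and 12.5% and 13.1% fell. The summed signal of the 8 markers ran from 10.91 to 11.32 in untreated cells and from 11.13 to 11.31 in the RA groups. Of the 8 immediate early genes 1 rose at each time, Atf3. Of them 3 fell at 2 h (Fos, Jun and Egr1), 6 at 4 h and 5 at 6 h (Fos, Jun, Egr1, Egr2 and Dusp1), with a median difference of -0.58, -1.14 and -0.68. Their summed signal ran from 14.91 to 15.14 in untreated cells, 14.55 to 14.68 at 2 h, 14.16 to 14.37 at 4 h and 14.29 to 14.50 at 6 h. The part of feeder cells and of these early response genes in the changes of the pathway was not tested.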

How the data were processed

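RNA of 12 samples was measured on Affymetrix mouse arrays, and samples were grouped by their labels into 4 groups of 3. The values are log2 signal as deposited by the authors. Per the submitters' processing notes they used limma 3.4.3, and the method of normalization is not given in the sources used here. No further normalization was applied, and the number of arrays limits the precision.

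The platform annotation named 34945 probe sets with 1 gene, 932 with several and 9160 with none. The 64 control probe sets were left out. A model of group means was fitted by lmFit and eBayes of limma 3.58.1 (R 4.3.3; degrees of freedom: residual 8, prior 4.23), with Benjamini-Hochberg adjustment over 45037 probe sets in each comparison and calls at an adjusted p under 0.05. A second fit took the within-array difference of each further probe set from its gene's brightest. Values are differences of group means ± SE. On simulated data for 45037 probe sets, 200 were changed, fewer than the 815, 8422 and 9286 called in the data at 2 h, 4 h and 6 h. A log2 change of 0.5 was recovered in 46.0%, 44.0% and 41.0% of the 200 at 2 h, 4 h and 6 h against no RA. A change of 1 was recovered in 92.5%, 92.0% and 92.0%. The adjusted p depends on how many probe sets change, so these rates do not give the recovery in the data.

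The members and lists were chosen with earlier results of these data known. Named genes were all member probe sets, per list up to 4 called genes with the largest difference (the largest where none was called), the 3 genes most correlated with each member, and the check genes. Some listed genes were not analysed here. Listed genes and markers were read from their brightest probe set alone, and their further probe sets are not described. Their steps between RA times are not described either, except for Lif and Jak3, chosen after their values were seen. Genes like a member were sought among those with a mean over arrays above the median of all values and a spread of at least that of the member halved. Alternatives were quantile normalization, median centring, one probe set per gene, leaving out probe sets with a suffix, a filter on dim probe sets, a trended and robust variance, array weights, a block for the replicate letter, fits of only the groups compared, an adjusted p under 0.01, and leaving out each array. Plots used matplotlib 3.10.9 (Python 3.11.15).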

Additional observations from a re-analysis of the deposited data

Results flagged for a closer look

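Between RA times, 19 differences of member probe sets passed the test of the step itself, so that 1 RA time differed from another. From 2 h to 4 h they were Lifr 1454984_at (-0.73), Il6st 1452843_at (-0.54) and 1460295_s_at (-0.54), Stat3 1459961_a_at (0.47), Socs3 1456212_x_at (-0.45), Pim1 1435458_at (0.31) and 1423006_at (0.39), and Pim3 1437100_x_at (-0.39) and 1451069_at (-0.34), all as log2 differences. From 2 h to 6 h they were Lifr 1454984_at (-0.91), Il6st 1452843_at (-0.72), 1460295_s_at (-0.71) and 1437303_at (-0.69), Jak1 1433805_at (-0.22), Stat3 1460700_at (0.29) and 1459961_a_at (0.57), Pim1 1423006_at (0.28), and Pim3 1437100_x_at (-0.48) and 1451069_at (-0.41).

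Some of these calls rest on single arrays. Jak1 1433805_at from 2 h to 6 h had an adjusted p of 0.0349, and of 0.0792 to 0.126 without 2 h replicate A or C or 6 h replicate B or C. Pim1 1423006_at from 2 h to 6 h had an adjusted p of 0.0486, which rose to between 0.0545 and 0.174 on leaving out untreated A or B, 2 h replicate A or B, 4 h replicate B or C, or any 6 h array. Stat3 1459961_a_at from 2 h to 6 h had an adjusted p of 0.0125, and of 0.0529 to 0.0567 without 2 h replicate C or 6 h replicate A or B. Stat3 1460700_at from 2 h to 6 h had an adjusted p of 0.0315, and of 0.0595 to 0.0957 without any 2 h or 6 h array. For Stat3 1426587_a_at the same step was 0.27 and did not pass (adjusted p = 0.172). Stat3 thus held a probe set that fell by 2 h, with a rise by 6 h that rests on single arrays. It also held one that passed the test against untreated cells at 4 h and 6 h and not at 2 h.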

How the results depend on the processing

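Of 31 calls of member probe sets against no RA, 24 were kept by all alternatives run at an adjusted p under 0.05, and no called difference changed sign under any alternative. The 4 calls at 2 h became 7 with array weights and 2 with only the groups compared, and ranged from 4 to 7 on leaving out each array. With 1 probe set per gene the 13 calls at 4 h and 14 at 6 h became 7 each, since fewer probe sets were tested. For the 9 calls from 2 h to 4 h, values were 5 with 1 probe set per gene, 5 without suffixed probe sets, 4 at an adjusted p under 0.01, and 4 to 11 on leaving out each array. For the 10 calls from 2 h to 6 h they were 5, 6, 5, and 5 to 12. The probe sets that differed from their gene's brightest, 2 at 2 h, became 1 without suffixed probe sets, 1 with the trended variance, 0 with only the groups compared, 0 at an adjusted p under 0.01, and 0 to 2 on leaving out each array. The 6 at 4 h became 3 without suffixed probe sets, 3 with only the groups compared, 3 at an adjusted p under 0.01, and 3 to 6 on leaving out each array. The 6 at 6 h became 2 without suffixed probe sets and 3 at an adjusted p under 0.01. Except for the smaller number of probe sets or arrays in some, the cause of these shifts was not tested.

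With the replicate block the counts were 5, 13 and 14 against no RA, 10, 0 and 10 between RA times, and 2, 5 and 5 for the differences between probe sets. Under it Jak1 1433805_at from 2 h to 6 h was lost (adjusted p = 0.0551) and Il6st 1460295_s_at no longer differed from the brightest at 4 h or 6 h at this threshold (adjusted p = 0.0674 and 0.063). Socs3 1456212_x_at from 2 h to 6 h (adjusted p = 0.0412) and 1455899_x_at from 2 h to 4 h (adjusted p = 0.037) and Pim2 at 2 h (adjusted p = 0.05 after rounding, under the threshold) were gained. Over 18 pairs of samples with the same letter, deviations from the group mean correlated from -0.164 to 0.257, and 4 pairs were over 0.1, so the letters were not taken to pair samples. Of all probe sets called at 2 h, 49.9% rose, against 38.4% without untreated replicate C and 65.7% with only the groups compared. A log2 change of 0.5 was recovered less often than one of 1 in simulated data, and probe sets near the array median may be limited by background.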
